A study of Mus musculus with 3 samples.

Results

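The genes described here are 10 that canonical Wnt signalling is known to induce: Axin2, Lef1, Tcf7, Nkd1, Sp5, Sp8, Dkk1, Apcdd1, Cdx1 and Znrf3. They were taken by the gene name that the array's files give, 10 of 27962 names, and every probe was kept apart, which gave 15 probes out of 41174. Of these, 13 probes of 9 genes were bright enough to test, meaning well above background in all 3 arrays of at least 1 dye. The other 2 were the Cdx1 probe and the third Lef1 probe.

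The RNA came from microdissected mouse otic placodal ectoderm, the patch of head ectoderm that forms the inner ear, at 4 to 8 somites. The tested embryos were Fgf3-/-;Fgf10-/- (double null), and the embryos they were set against were Fgf3+/-;Fgf10+/- (double heterozygote), which carried 1 mutant allele of each gene and were not wild type. Each of 3 two-colour arrays carried 1 pool of 10 double null placodes in Cy5 and 1 pool of 10 double heterozygote placodes in Cy3. The dyes were never swapped, so a dye effect of a probe cannot be told apart from the genotype. All log2 ratios are double null over double heterozygote, and n is 3 arrays throughout unless stated.

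In canonical Wnt signalling a Wnt ligand binds a Frizzled receptor with its partner Lrp5 or Lrp6, beta-catenin escapes destruction, and in the nucleus it joins TCF/LEF proteins to switch on target genes. Several of these targets feed back on the pathway, which is why their RNA is widely used as a readout of it. In the ear field, Wnt signals from the hindbrain are known to favour otic over epidermal fate in the ectoderm, and Fgf3 and Fgf10 come from the hindbrain and the underlying mesoderm. The comparison asks whether the Wnt readout in the placodal ectoderm differs when both FGFs are missing.

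TCF and LEF proteins bind a core that reads CTTTGA, or TCAAAG on the other strand. The 300-base windows around the RefSeq start sites (250 bases before and 50 after, build GRCm38.p6) were searched for it on both strands, and separately for the longer CTTTGAT, which contains the first. Windows were at hand for 7 of the genes, 13 windows in all, since Lef1, Tcf7 and Sp8 have several. The shorter core stood in 4 of the 13 windows, against 16% of all 32851 windows, and the longer in 1 of 13, against 3.73%. A match is a description of letters and not a site. The 250 bases before the start site are shown for 3 genes that recur below, Sp5, Dkk1 and the downstream start of Lef1, with the matches in capitals. They lie at chr2:70474673-70474922 (+), chr19:30549497-30549746 (-) and chr3:131156044-131156293 (+).
Sp5: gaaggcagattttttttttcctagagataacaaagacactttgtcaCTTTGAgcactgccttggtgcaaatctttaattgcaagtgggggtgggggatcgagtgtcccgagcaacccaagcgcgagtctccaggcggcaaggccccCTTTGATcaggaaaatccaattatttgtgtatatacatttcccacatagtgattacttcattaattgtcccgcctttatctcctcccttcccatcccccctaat
Dkk1: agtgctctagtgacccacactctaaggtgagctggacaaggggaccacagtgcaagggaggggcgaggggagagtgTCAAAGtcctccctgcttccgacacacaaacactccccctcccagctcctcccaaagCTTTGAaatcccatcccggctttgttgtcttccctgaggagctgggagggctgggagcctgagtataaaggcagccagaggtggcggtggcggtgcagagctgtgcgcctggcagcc
Lef1: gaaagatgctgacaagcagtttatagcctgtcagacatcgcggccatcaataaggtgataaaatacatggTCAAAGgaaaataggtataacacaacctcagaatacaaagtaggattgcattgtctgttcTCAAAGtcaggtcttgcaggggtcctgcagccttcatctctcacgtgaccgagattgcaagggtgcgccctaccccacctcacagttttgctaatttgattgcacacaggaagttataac
Counted from the start site, the Sp5 window held CTTTGA at -204 and -104, the second extended to CTTTGAT. The Dkk1 matches began at -174 and -117, on opposite strands, and the Lef1 matches at -180 and -120. The fourth window with a match was of Sp8, at -50. The Axin2, Tcf7 and Nkd1 windows and the other 3 Lef1 windows held none of these letters.

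A single probe of the Wnt response genes passed the test, a Lef1 probe, and the ratios of the set had both signs. Of the 13 tested probes, 10 had a ratio below 0, against 46% of all 25506 tested probes, and their median was -0.09, against 0.01 over all tested probes. Among all tested probes the share below 0 varied with mean log2 intensity. It was 41.1% up to 8, 50.9% between 11 and 12, and 54.6% between 12 and 13. With median centring in place of loess, 4 of the 13 members' probes were below 0 and their median turned to 0.0228. Without replicate 2, 8 of the 13 were below 0. After Benjamini-Hochberg adjustment over all tested probes limma called 1 of the 13 lower in the double null and 0 higher. Over the whole array 1.49% of probes were called, 0.282% lower and 1.2% higher. Of the 307 higher calls, 220 were among the 757 probes with a mean log2 intensity over 15, where no member lay. Of the 24749 probes up to 15 limma called 69 lower and 87 higher in this fit. Fitted and adjusted without the brighter probes, the 24749 gave 1 lower and 20 higher calls, and 0 of the members. The Lef1 probe then had limma adjusted p = 0.108. On all 3 arrays 6 of the 13 were below 0, against 19.2% of all tested probes, and 2 were above 0, against 24.6%. At an unadjusted p under 0.05, 2 of the 13 were lower, against 8.35% of all tested probes, and 1 was higher, against 11.9%. The median of the 13 was -0.03, -0.06 and -0.09 on arrays 1, 2 and 3. The ratios of the tested probes ran between -0.30 for a Lef1 probe and 0.36 for a Dkk1 probe, which were further from 0 than 97.1% and 98.2% of all tested probes. In pools of tissue, fewer cells of a type and less RNA per cell cannot be told apart.

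**Figure D1:**
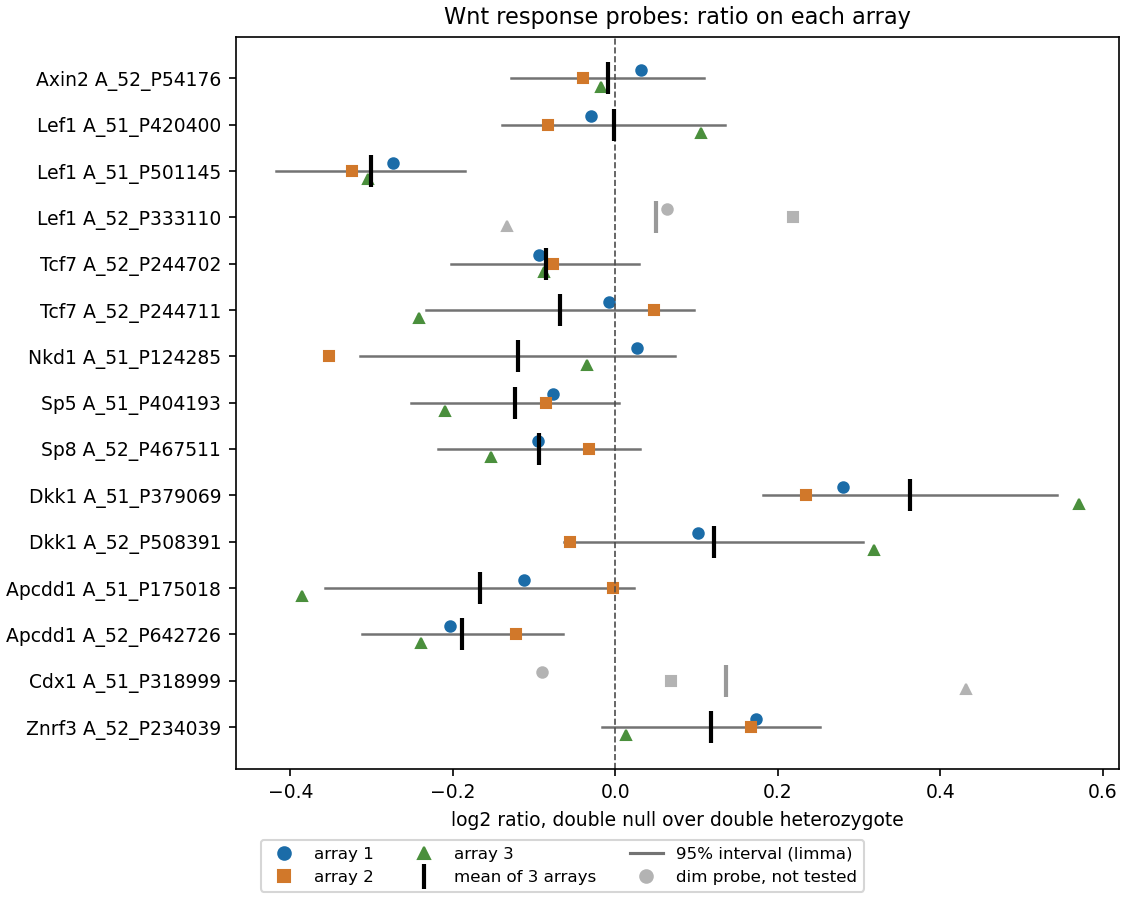
Log2 ratio (x axis) of each of the 15 probes of the Wnt response genes (rows) on arrays 1, 2 and 3, with the mean as a black bar and limma's 95% interval as a grey line. Grey symbols are the 2 probes that were too dim to test. The intervals of Lef1 A_51_P501145 and Apcdd1 A_52_P642726 lie below 0 and that of Dkk1 A_51_P379069 above it, while that of Axin2 spans 0.

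Axin2, a scaffold of the beta-catenin destruction complex and the most general feedback target of the pathway, did not pass. Its probe (chr11:109059707-109059766, build mm7) read log2 levels of 12.49, 12.70 and 12.61 in the double null pools, against 12.46, 12.74 and 12.63 in the double heterozygote pools. The ranges of the groups overlapped, and the double null pool was above its partner on 1 of 3 arrays. The mean log2 ratio was -0.01 ± 0.05 (SE, n = 3), with limma adjusted p = 0.937. The 95% interval of the fold ran between 0.915 and 1.08. Levels here are log2 intensities after loess within arrays and scaling of the mean intensities between arrays.

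Lef1 encodes a DNA-binding partner of beta-catenin that is also a target of the pathway, and its probes disagreed. The bright probe A_51_P501145, designed on a thymus cDNA, is at chr3:131060609-131060668 of mm7. It read 11.93, 12.04 and 12.04 in the double null pools, against 12.20, 12.36 and 12.35 in the double heterozygote pools. All 3 double null pools were below all 3 double heterozygote pools, which held for 6.88% of all tested probes. The log2 ratios of -0.27, -0.32 and -0.31 were close to each other. The mean fell by 0.30 ± 0.05 on the log2 scale (SE, n = 3), and the fold was 0.812 (limma adjusted p = 0.0433). The call was lost when any single array was left out (limma adjusted p = 0.0909, 0.148 and 0.183 without replicates 1, 2 and 3), while the ratio stayed between -0.31 and -0.29. It was also lost with the scanner's own processed signals, at a ratio of -0.30 and adjusted p = 0.207.

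The second Lef1 probe, A_51_P420400, was designed on the RefSeq mRNA and maps to chr3:131041424-131059585, a span of 18162 bases for 60 bases of probe. It read 9.25, 9.43 and 9.55 in the double null pools, against 9.28, 9.52 and 9.45 in the double heterozygote pools, with overlapping groups. Its log2 ratio of -0.0024 ± 0.06 (SE, n = 3) did not pass, with adjusted p = 0.986. The ratio of the bright probe minus that of this probe was -0.25, -0.24 and -0.41 on the 3 arrays, negative on each, and an exact two-sided sign-flip permutation test gave p = 0.25, the smallest that 3 arrays allow. The third probe, A_52_P333110, lies upstream at chr3:130953629-130953688 and was well above background on 0 arrays in either channel. The probes therefore read different stretches of the locus, and which Lef1 transcripts each detects was not analysed here. The first 30 of each probe's 60 bases, as listed in the scanner files, are shown to tell them apart.
A_51_P501145: atctgtttttattagccgattagtgggaat
A_51_P420400: gtacaggtcccagaatgacagctgcctaca
A_52_P333110: tctacggaaaggctaaaaggtcaacaaata

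**Figure D2:**
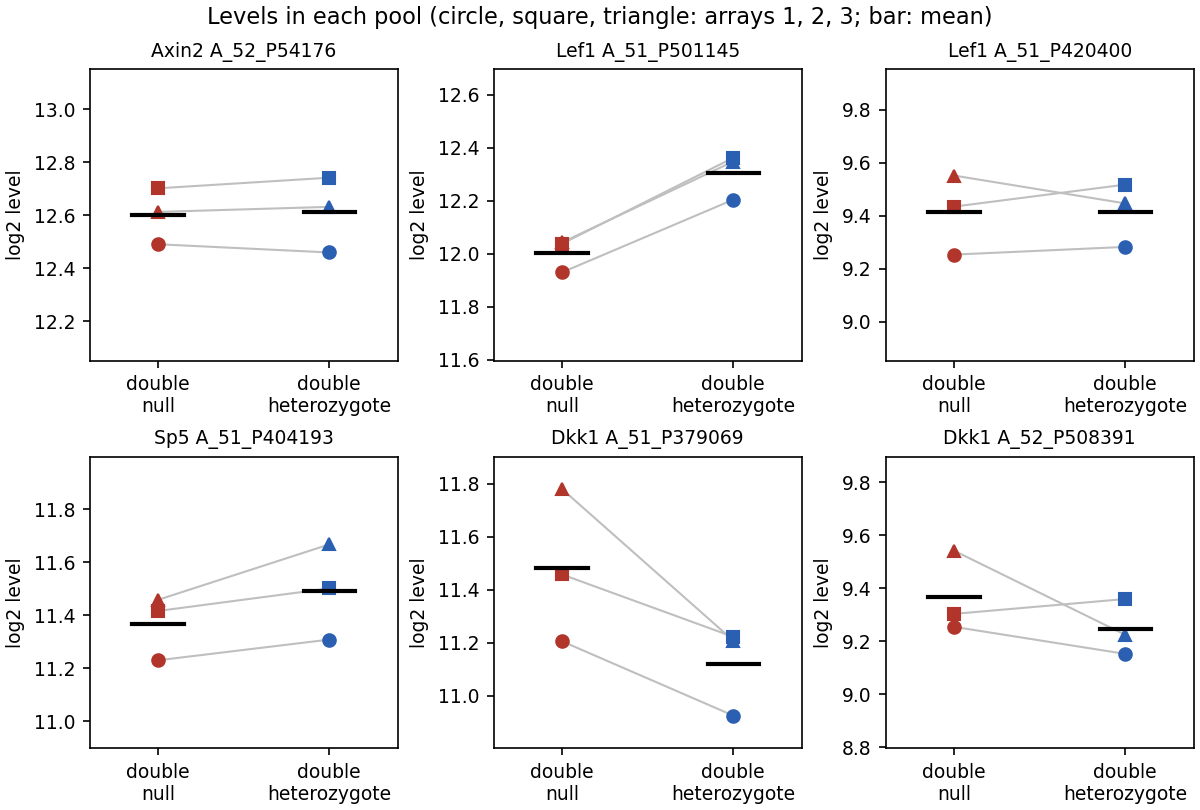
Normalized log2 levels (y axis, each panel spanning the same range of log2 units) of 6 probes in the 3 double null pools (red, left) and the 3 double heterozygote pools (blue, right), with grey lines joining the pools of an array and black bars at the means. Lef1 A_51_P501145 is lower in each double null pool, Lef1 A_51_P420400 averages 9.41 in double null and 9.42 in double heterozygote pools, and Dkk1 A_51_P379069 is higher on each array, with the pool of array 3 highest.

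Tcf7, the other LEF/TCF family gene of the set, had 2 tested probes on chromosome 11 and neither passed. Probe A_52_P244702 had 10.89, 11.05 and 11.11 in the double null pools, against 10.99, 11.12 and 11.19 in the double heterozygote pools, so each double null pool was below its partner though the groups overlapped. Its array ratios of -0.09, -0.08 and -0.09 had the smallest spread of the 13 tested probes (SD 0.0088), and their mean of -0.09 ± 0.05 (SE, n = 3) had limma adjusted p = 0.36. Probe A_52_P244711 gave -0.01, 0.05 and -0.24, a mean of -0.07 with adjusted p = 0.614.

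None of the feedback inhibitors Dkk1, Apcdd1, Nkd1 and Znrf3 had a probe that passed under the processing reported here. Dkk1 encodes a secreted protein that blocks the Wnt co-receptors Lrp5 and Lrp6, and it was the gene with the highest ratio of the set. Its brighter probe (A_51_P379069, chr19:30246086-30246145 of mm7) read 11.21, 11.46 and 11.78 in the double null pools, against 10.93, 11.22 and 11.21 in the double heterozygote pools. Each double null pool was above its partner, by 0.28, 0.24 and 0.57, although the lowest double null pool lay within the range of the double heterozygotes. The mean was 0.36 ± 0.08 on the log2 scale (SE, n = 3), a fold of 1.28 with a 95% interval between 1.13 and 1.46, and limma adjusted p = 0.0809 did not pass. With an intensity trend in the prior variance it passed at adjusted p = 0.0366.

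The second Dkk1 probe (A_52_P508391, chr19:30245191-30245250) read 9.25, 9.30 and 9.54 in the double null pools, against 9.15, 9.36 and 9.22 in the double heterozygote pools. Its ratio was above 0 on arrays 1 and 3 and below 0 on array 2, with a mean of 0.12 ± 0.08 (SE, n = 3) and adjusted p = 0.415. It was 0.0233 without replicate 3 and 0.21 without replicate 2. The brighter probe exceeded it by 0.18, 0.29 and 0.25 on the 3 arrays (exact two-sided sign-flip permutation p = 0.25, the smallest possible). On both probes array 3 had the highest ratio. The first 30 bases of both are shown for the same reason.
A_51_P379069: tactgtgttgtaaatcctcagtgtggcact
A_52_P508391: atgcagaaggaagcctgccaacttaagcca

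Apcdd1, a membrane-bound inhibitor of Wnt signalling, was below 0 on all 3 arrays with both of its probes, as 19.2% of all tested probes were. The bright probe A_51_P175018 read 12.32, 12.16 and 12.23 in the double null pools, against 12.43, 12.16 and 12.61 in the double heterozygote pools. The difference came mainly with array 3, at -0.39, while array 2 stood at -0.0030. Its mean was -0.17 ± 0.08 (SE, n = 3) with limma adjusted p = 0.294, and -0.06 without replicate 3. The dim probe A_52_P642726 had 6.83, 6.82 and 6.72 in the double null pools, against 7.04, 6.94 and 6.96 in the double heterozygote pools. Those groups did not overlap, which held for 6.88% of all tested probes in this direction. Its mean of -0.19 ± 0.05 (SE, n = 3) had adjusted p = 0.131, and its scanner readings of 117 to 123 in the double null channel lay near a local background of 52 to 57.5. The value was -0.45 with the scanner's processed signals and in the authors' series table (adjusted p = 0.217 and 0.205). With median centring it was -0.73 and called lower (limma adjusted p = 0.000403), but that setting called 54.6% of all tested probes.

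Nkd1, which binds Dishevelled and dampens the pathway, read 12.59, 12.55 and 12.61 in the double null pools, against 12.56, 12.90 and 12.65 in the double heterozygote pools. The high double heterozygote pool of array 2 gave a ratio of -0.35 there, against 0.03 and -0.04 on arrays 1 and 3. The mean of -0.12 ± 0.08 (SE, n = 3) had adjusted p = 0.444, and it was -0.0044 without replicate 2. Znrf3, a ubiquitin ligase that removes Frizzled receptors from the membrane, read 9.94, 10.11 and 9.95 in the double null pools, against 9.77, 9.94 and 9.94 in the double heterozygote pools. Its groups did not overlap, as for 9.54% of all tested probes in this direction, but the margin was small. Its mean was 0.12 ± 0.06 (SE, n = 3) with adjusted p = 0.297.

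Sp5 and Sp8 encode zinc finger factors downstream of Wnt signalling. Sp5 read 11.23, 11.42 and 11.46 in the double null pools, against 11.31, 11.50 and 11.67 in the double heterozygote pools, lower on each array within overlapping groups. Its mean of -0.12 ± 0.05 (SE, n = 3) had limma adjusted p = 0.259, and it was -0.08 without replicate 3. Sp8 read 11.11, 11.27 and 11.01 in the double null pools, against 11.20, 11.30 and 11.16 in the double heterozygote pools. Its mean of -0.09 ± 0.05 (SE, n = 3) had adjusted p = 0.356. The 95% intervals of the fold were 0.84 to 1.00 for Sp5 and 0.86 to 1.02 for Sp8.

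Cdx1, a homeobox gene that Wnt signalling induces in the posterior embryo, was close to background. Its probe was well above background in 2 of 3 double null channels and in 1 of 3 double heterozygote channels, so it was not tested. Scanner readings were 93.9, 130.5 and 157 in the double null channel over local backgrounds of 60, 55 and 52, against 62.7, 71.6 and 63.7 in the double heterozygote channel over 46.5, 41.5 and 38. The array ratios of -0.09, 0.07 and 0.43 had no common sign. Whether it differed was not detectable at this signal.

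RNA of Wnt ligands was measured in the same samples. Wnt8a, expressed in the hindbrain next to the placode, read 11.89, 12.48 and 12.47 in the double null pools, against 11.73, 12.72 and 11.74 in the double heterozygote pools. Its ratios of 0.16, -0.24 and 0.73 differed in sign, and its mean of 0.22 ± 0.16 (SE, n = 3) had limma adjusted p = 0.494. Among 19 tested ligand probes 0 were called lower and 1 higher, against 0.282% and 1.2% of all tested probes. The called probe was of Wnt3, at 0.31 ± 0.05 (SE, n = 3, limma adjusted p = 0.0482), and that gene's other probe was at -0.01. The list median was -0.01. Among 16 Frizzled receptor probes 0 were called by limma, and the median was -0.03. At an unadjusted p under 0.05, 1 was lower, against 8.35% of all tested probes. Fzd1 had the largest ratio there that kept its sign on every array, -0.27 ± 0.08 (SE, n = 3) with adjusted p = 0.158.

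Genes that act inside the receiving cell had medians close to 0. In the core list (co-receptors, Dishevelled, destruction complex, beta-catenin) 46 probes were tested, with a median of 0.0025. Of these, 0 were called lower and 1 higher, against 0.282% and 1.2% of all tested probes. The called probe was of Csnk1d, a casein kinase gene, at 0.30 ± 0.05 (SE, n = 3, limma adjusted p = 0.0431), while the other 3 Csnk1d probes gave 0.03, -0.06 and -0.04. That probe had a mean log2 intensity of 15.3, and the median ratio of the 757 tested probes above 15 was 0.185, against 0.008 in the 24749 up to 15. All 13 tested member probes lay between 6.88 and 12.6. Among 21 probes of nuclear TCF and beta-catenin cofactors limma called 0, and the median was -0.03. At an unadjusted p under 0.05, 3 of them were lower, against 8.35% of all tested probes. Bcl9l and Pygo2, both part of the beta-catenin coactivator complex, were at -0.22 (adjusted p = 0.118) and -0.20 (adjusted p = 0.163).

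Secreted modulators and the genes that make Wnt proteins ready for secretion had 21 tested probes, with a median of -0.01. Of these, 1 was called lower and 0 higher, against 0.282% and 1.2% of all tested probes. The called probe was of Sfrp1, a secreted Wnt antagonist, at -0.35 ± 0.05 (SE, n = 3, limma adjusted p = 0.0269), but the brighter Sfrp1 probe was at 0.15 ± 0.09 with adjusted p = 0.384. Of 24 probes of other Wnt-responsive genes, with a median of -0.05, 1 was called lower and 0 higher, against the same shares. The probe called there was of Ccnd1, the cyclin D1 gene, which several growth pathways induce. It had 13.34, 13.47 and 13.55 in the double null pools, against 13.73, 13.81 and 13.80 in the double heterozygote pools, and fell by 0.33 ± 0.05 (SE, n = 3, adjusted p = 0.0428). The Ccnd1 probe is placed on chr7_random of mm7, and the Fgf3 probe on chr7. Whether its value goes with the chromosome that carries the targeted Fgf3 allele was not tested.

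Genes that respond to FGF signalling show how the same arrays read the other pathway. Of 18 tested probes in that list 2 were called lower and 0 higher, against 0.282% and 1.2% of all tested probes, and the median was -0.12, against 0.01. Dusp6, whose product switches off ERK and which FGF induces, had 14.29, 14.18 and 14.18 in the double null pools, against 14.68, 14.65 and 14.82 in the double heterozygote pools, and fell by 0.50 ± 0.06 (SE, n = 3, limma adjusted p = 0.0168). Spred3, an inhibitor of the ERK pathway, fell by 0.44 ± 0.07 (adjusted p = 0.0428). Etv4 (-0.39, adjusted p = 0.131), the brighter probe of Etv5 (-0.32, adjusted p = 0.114), Spry1 (-0.20, adjusted p = 0.15) and the brighter probe of Spry2 (-0.05, adjusted p = 0.657) did not pass. Fitted without the probes above a mean log2 intensity of 15, limma called 1 probe lower over the whole array. With the scanner's processed signals it called 0. Of the Sfrp1, Ccnd1, Dusp6 and Spred3 calls, at most 1 was therefore kept in the first of these fits and 0 in the second. The difference between the FGF and the Wnt lists was not tested.

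**Figure D3:**
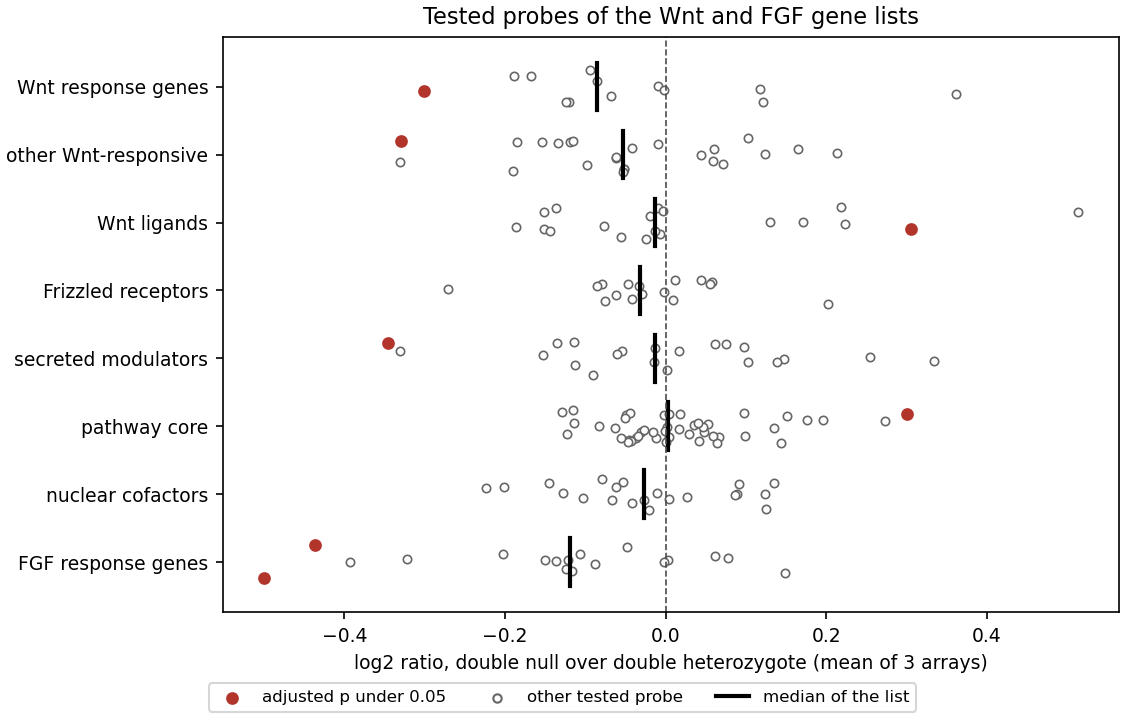
Mean log2 ratio over 3 arrays (x axis) of every tested probe of the Wnt and FGF gene lists (rows), with called probes in red and the median of a list as a black bar. The medians run between -0.12 for FGF response genes and 0.0025 for the pathway core, and no row other than the FGF response genes holds more than 1 called probe.

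The targeted genes and the tissue were read on the same arrays. Fgf3 was at -0.48 ± 0.13 (SE, n = 3, limma adjusted p = 0.121) and Fgf10 at 0.14 ± 0.09 (adjusted p = 0.385). The position of either probe relative to its mutated stretch was not analysed here, and the genotype is taken from the labels. Of 11 otic placode genes on the array 10 were tested, while the probe of Pax2, a defining placode gene, was well above background on 0 arrays in either channel. All 10 surface ectoderm genes of the list were tested, and so were all 10 hindbrain genes.

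Markers of other cell types moved between arrays. The medians on arrays 1, 2 and 3 were -0.18, 0.04 and -0.12 for surface ectoderm genes, -0.10, -0.01 and -0.23 for hindbrain genes, -0.43, -0.12 and -0.29 for otic placode genes, and 1.30, -0.14 and 0.95 for blood and endothelial genes. All 14 tested otic probes were below 0, against 46% of all tested probes. Limma called a probe of Hmx2 (-0.59) and of Sox9 (-0.69), both transcription factors of the placode, lower, against 0.282% of all tested probes. Hmx3 had the ratio furthest from 0 in the otic list, -1.01 ± 0.17 (SE, n = 3), and was not called (limma adjusted p = 0.0524). Sox9 probes A_52_P214630 (-0.40, limma adjusted p = 0.105) and A_51_P451606 (-0.0041, adjusted p = 0.977) were not called. The summed linear level of the otic list was 25400 to 28800 in double null pools, against 31900 to 39100 in double heterozygote pools. It ranged between 99100 and 116000 in double null pools, against 112000 to 125000 in double heterozygote pools, for surface ectoderm. For hindbrain it was 99600 to 107000, against 103000 to 128000, and for blood and endothelium 1670 to 11200, against 1940 to 2780. Of the blood and endothelial list 5 of 9 genes were tested, while Gata1 was above background on 0 arrays, and neither Pecam1 probe was bright enough to test. Neural crest, head mesoderm and endoderm lists had medians of -0.15, 0.12 and -0.16, with 1 called probe, of Sox17, lower at -0.53. Another Sox17 probe was at -0.36 and not called (limma adjusted p = 0.0556). In the fit without probes above a mean log2 intensity of 15, limma called 1 probe lower over the whole array. At most 1 of the Hmx2, Sox9 and Sox17 calls was therefore kept there. In the posterior list 5 of 8 genes were tested, with 0 called and a median of -0.14, while Cdx4 and Msgn1 were above background on 0 arrays. The part of these shifts in the ratios of the Wnt response genes was not tested.

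How far the Lef1, Dkk1 and Axin2 values depend on the processing is seen across 19 alternatives. The bright Lef1 probe was below 0 in all 19 and past the threshold in 6, and its ratio lay between -0.31 and -0.29 except with median centring (-0.13) and as the mean of the gene's probes (-0.15). The bright Dkk1 probe was above 0 in all 19, between 0.24 and 0.48, and passed in 2. Axin2 lay between -0.03 and 0.01 except with median centring, where it was at 0.19 and called higher (limma adjusted p = 0.0196). With that centring limma called 54.6% of all tested probes.

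**Figure D4:**
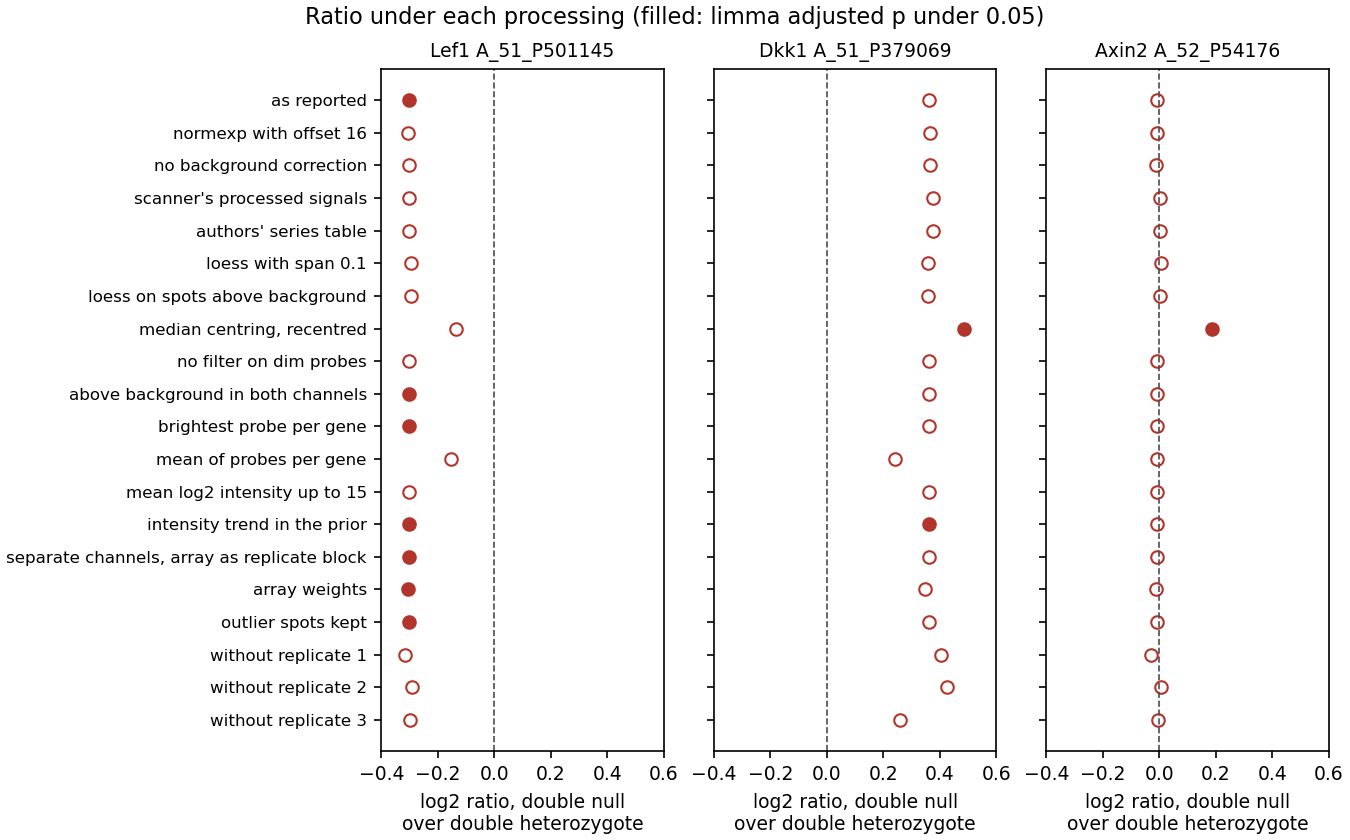
Log2 ratio (x axis) of the bright Lef1 probe, the bright Dkk1 probe and the Axin2 probe under the reported processing and 19 alternatives (rows), filled where limma's adjusted p is under 0.05. The Lef1 points keep to about -0.30 apart from 2 alternatives, though 13 of the 19 are open, and Axin2 leaves 0 with median centring.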

How the data were processed

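Per the labels' protocols, the RNA of each pool went through linear amplification before dye labelling. Per the submitters' processing notes, Agilent Feature Extraction 9.5.1.1 read the spots. Its deposited output gives the mean, local background and processed intensity of a spot and a log10 ratio, and the authors' series table holds log2 ratios that equal that log10 ratio on a log2 scale within 2.01e-06.

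Background was corrected with normexp (offset 50) and ratios were normalized by loess (span 0.3, control spots at weight 0) in limma 3.58.1 and R 4.3.3. Spots with an outlier mark (143 to 175 per array) were left out, spots of a probe were averaged, and probes well above background in all 3 arrays of Cy3 or of Cy5 were tested, 25506 in all. The mean ratio was tested against 0 with lmFit and eBayes, adjusted by Benjamini-Hochberg over all tested probes at 0.05, and the prior degrees of freedom were 4.53. Intervals and standard errors are the moderated ones. Levels per pool come from loess and Aquantile scaling. The fit was tested on simulated data.

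Array depth is limited by the number of arrays, and 27284 to 29177 spots passed the scanner's background test in Cy5, against 26452 to 28258 in Cy3. All arrays lay on the same slide and were read in the same scan session, per the file headers. The pools are separate per the labels. The p-values rest on the spread of the paired ratios over 3 arrays, moderated by limma with a prior variance drawn from all tested probes. For the bright Lef1 probe the SD over arrays was 0.025, while the moderated SE was 0.0486.

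The genes, lists and alternatives were chosen with earlier results of these data known. Genes of the other Wnt lists were named if a probe passed, or else as the 2 largest ratios of a list with no passing probe among brightest probes with the same sign on all arrays, plus Dusp6, Etv4, Etv5, Spry1, Spry2, Fgf3, Fgf10 and Wnt8a. Spred3 and the marker genes Hmx2, Hmx3, Sox9, Sox17, Pax2, Gata1, Pecam1, Cdx4 and Msgn1 were named after their values were seen. For the lists probes were named through RefSeq records of GRCm38.p6, 22951 by accession, 6659 by symbol and 3109 by synonym. Alternatives changed the background correction, signals, loess, filter, probe rule, variance prior, model and arrays used.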

Additional observations from a re-analysis of the deposited data

How the results depend on the processing

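The count of called probes, 379 as reported, was 199 with an offset of 16, 31 with a loess span of 0.1, 205 with loess on spots above background, 13927 with median centring recentred on the tested probes, 21 up to intensity 15, 993 with an intensity trend, and 862 with separate channels and the array as a replicate block. With the processed signals and the authors' series table limma called 0 (4417 and 4469 probes at unadjusted p under 0.05). With 1 array left out it was 82 to 309, lowest without replicate 3 and 245 without replicate 2. The share of higher calls, 81% as reported, was 64% with the trend, 66.5% with separate channels, 45.3% with median centring, 95.2% up to intensity 15 and 95.1% without replicate 3. The cause was not tested.

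Of the Wnt response probes limma called 1 as reported and with separate channels and the array as a replicate block. It also called 1 with probes above background in both channels, the brightest probe per gene, array weights, and outlier spots kept. In these settings 1.49% to 3.38% of all tested probes were called. Limma called 3 members with median centring and 2 with the trend, against 54.6% and 3.89% of all tested probes. It called 0 (3 to 5 at unadjusted p under 0.05) with an offset of 16, no background correction, processed signals, series table, both other loess fits, no filter, the mean of probes per gene, intensity up to 15, and with any array left out. Their median of -0.09 turned to 0.0228 with median centring, which leaves any trend of the ratio with intensity in place. Whether such a trend comes with the dye or the genotype was not tested. The members' median lay between -0.10 and -0.06 in the other 18 alternatives, -0.0576 to -0.0930 with 1 array left out. With median centring Axin2 (0.187), Tcf7 A_52_P244702 (0.0237), Nkd1 (0.0783), Sp5 (0.0053), Sp8 (0.0228) and Apcdd1 A_51_P175018 (0.0094) also turned above 0. Probes near 0 changed sign elsewhere: Axin2 at 0.0030 with processed signals and series table, 0.0059 with span 0.1, 6e-04 with loess on spots above background and -0.0292 to 0.0061 with 1 array left out, Lef1 A_51_P420400 at -0.0564 to 0.0379 (0.0112 without replicate 1) and Tcf7 A_52_P244711 at -0.125 to 0.0194 with 1 array left out. The number of arrays and, for Cdx1, signal near background limit these values.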
